A study of Arabidopsis thaliana with 6 samples.

Results

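The plastid genome of Arabidopsis keeps a small set of genes for the photosynthetic complexes and for its own RNA polymerase, and 46 of them were followed here in whole cax1cax3 double-mutant and wild-type plants. They were chosen by symbol: every probe set that the array annotation pairs with a single gene whose lower-case name begins with psa, psb, pet, ndh, rpo or ycf, or is rbcL, accD, clpP or matK. RefSeq places 49 genes of these names on the plastid genome. The 46 members have 1 probe set each, out of 13350 named genes on the array, and RefSeq's gene numbers put all 46 on the plastid genome. The remaining names, ycf1, ycf2 and ndhB, are each annotated with 2 gene numbers on 1 probe set and are given apart.

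Plants of the cax1cax3 double mutant, which lack a pair of vacuolar cation/H+ exchangers, were compared with the wild type, both in the Columbia-0 ecotype, with 3 arrays of each genotype numbered 1 to 3. The sources used here give neither the alleles of the mutant nor the number of plants behind an array, nor what the replicate numbers mark. The annotation used here pairs 0 probe sets with CAX1 or CAX3 and leaves 8730 without a gene, so the genotype labels were not checked on the mutated genes. All plants grew for 10 days on 0.5X MS plates that held 0.5% sucrose before 3 weeks on soil, under 16 hours of light of 150 µmol photons per square metre and second at 22 °C, and were taken once necrotic lesions began to show on the mutant. The labels give the age of all plants as 40 days. In whole-plant RNA, fewer green cells and less plastid RNA per cell cannot be told apart.

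Chloroplast genes are read by a plastid-encoded polymerase of bacterial type, whose core is made from rpoA, rpoB, rpoC1 and rpoC2, and by a nuclear-encoded polymerase of phage type. Most are cotranscribed as bacterial-style operons whose long transcripts are then cut, trimmed and protected by nuclear-encoded RNA-binding proteins. The psa, psb, pet and ndh products join nuclear-encoded subunits in photosystem I, photosystem II, the cytochrome b6f complex and the NDH complex of cyclic electron flow. The labelled cRNA was started from an oligo(dT) primer, which binds poly(A). Plastid messages, unlike nuclear ones, carry no stable poly(A) tail as a rule, so each value is the level of what this priming copied from a message and not a count of the message.

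None of the 46 plastid genes was called higher or lower in cax1cax3. A gene is called where limma's p, adjusted by Benjamini-Hochberg across the 22746 probe sets tested, lies under 0.05. By that rule 5.62% of all probe sets were called, 2.34% higher and 3.28% lower. At an unadjusted p under 0.05 the members again numbered 0, against 19.5% of all probe sets. Arrays of the 2 genotypes did not overlap for 1 member, psbM, against 24.6% of all probe sets. Of the 46 members, 33 had positive and 13 negative differences, with a median of 0.06 and a range of -0.28 to 0.60 on the log2 scale. The median over all probe sets was 0.01. With the replicate number as a block, 0 members were called, where 9.78% of all probe sets were, and 1 member had an unadjusted p under 0.05, psbT.

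These differences were measured with wide errors. The 95% intervals of the 46 differences ranged from 0.43 to 3.58 log2 units in width, and together they spanned -1.97 to 2.05. For 9 members the interval held both a 2-fold higher and a 2-fold lower level. The residual SD within genotypes had a median of 0.52 over the members, against 0.17 over all probe sets. It exceeded the median of all probe sets in 41 of the 46 members, as it does by definition in 50% of all probe sets. The members at or below that median were psbM, psbL, psbF, psbE and psbN. Thus most plastid genes differed more among arrays of 1 genotype than a typical transcript did, and a handful of small photosystem II genes differed little.

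**Figure D1:**
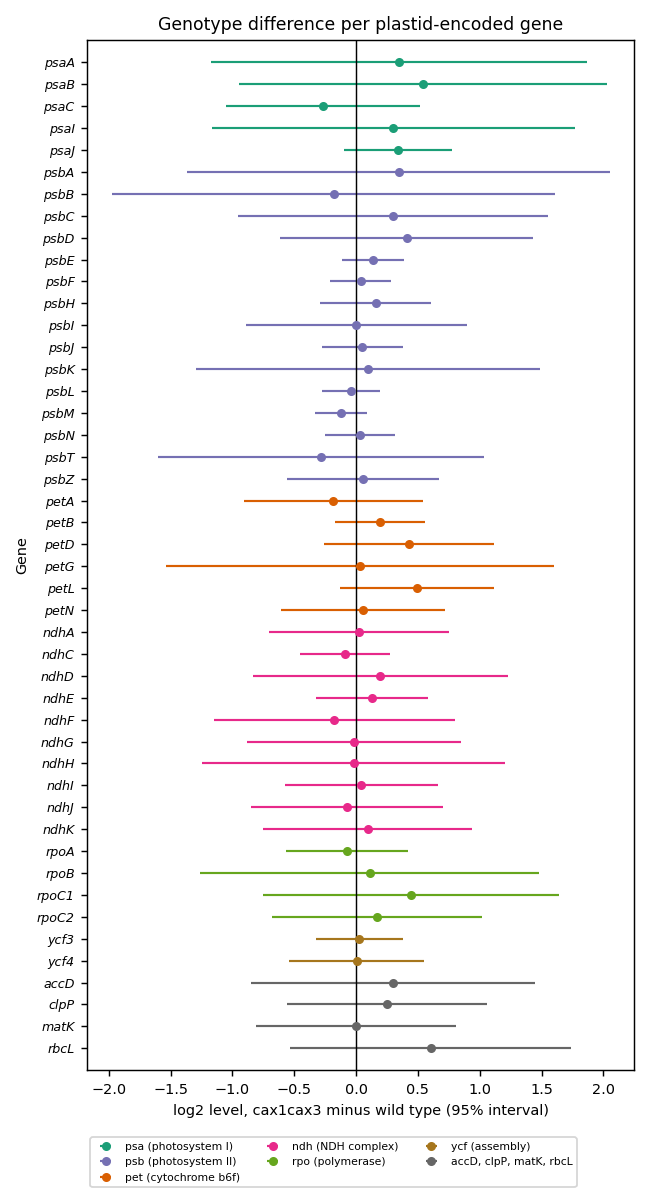
Log2 difference between cax1cax3 and wild type (x axis) for each of the 46 plastid genes (y axis), with limma's 95% interval, 3 arrays per genotype. Every interval includes 0. The narrowest belong to psbM, psbL, psbE and psbF and the widest to psbB.

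Photosystem I genes varied most as a group, with a median residual SD of 0.97 over 5 genes, and none of their differences passed the test. The products of psaA and psaB form its reaction centre pair. The log2 level of psaB was 11.94, 12.57 and 13.18 in cax1cax3 arrays 1, 2 and 3, against 12.52, 12.94 and 10.60 in wild-type arrays 1, 2 and 3. Wild-type array 3 lay far below the other wild-type arrays and cax1cax3 array 3 was the highest of all 6. The groups overlapped, with wild-type arrays 1 and 2 above cax1cax3 array 1. The difference was 0.54 ± 0.62 (log2 difference ± SE, 95% interval -0.95 to 2.03, limma adjusted p = 0.718). The same order held for psaA, at 10.40, 10.72 and 11.58 in cax1cax3 and 11.09, 11.49 and 9.09 in the wild type, with a difference of 0.35 and an interval of -1.17 to 1.87. For psaI, which encodes a small subunit, array 3 was likewise the lowest of the wild type and the highest of cax1cax3, at 9.62, 10.30 and 10.86 in cax1cax3 and 10.41, 10.90 and 8.57 in the wild type. For psaJ, another small subunit and the member of the group with the lowest adjusted p, the levels were 12.57, 12.68 and 13.04 in cax1cax3 and 12.52, 12.64 and 12.11 in the wild type, a difference of 0.34 ± 0.18 (log2 difference ± SE, 95% interval -0.10 to 0.78, limma adjusted p = 0.381). The iron-sulphur subunit gene psaC was steady in the mutant, with levels of 9.16, 9.22 and 9.15 in cax1cax3 and 9.65, 10.04 and 8.65 in the wild type. Wild-type array 3 was again the lowest. The 5 differences had a median of 0.34.

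The 15 psb genes of photosystem II ran from the most to the least variable of all members. The gene psbA, for the rapidly replaced D1 protein of the reaction centre, measured 9.34, 10.06 and 12.16 in cax1cax3 arrays 1, 2 and 3, against 10.13, 10.85 and 9.54 in wild-type arrays 1, 2 and 3. Its mutant arrays spanned 2.81 log2 units and enclosed all 3 wild-type arrays. The difference was 0.34 ± 0.72 (log2 difference ± SE, 95% interval -1.36 to 2.05, limma adjusted p = 0.86). Its partner gene psbD, for the D2 protein, had the largest difference of the group and gave 9.11, 8.28 and 8.69 in cax1cax3 and 9.02, 8.49 and 7.35 in the wild type, a difference of 0.41 ± 0.43 (log2 difference ± SE, 95% interval -0.61 to 1.43, limma adjusted p = 0.685). Cotranscribed psbC, for an inner antenna protein, gave 9.58, 8.57 and 9.10 in cax1cax3 and 9.73, 8.99 and 7.65 in the wild type. In both, array 1 was the highest of its genotype and wild-type array 3 the lowest of all 6.

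The other inner antenna gene, psbB, had the largest residual SD of the members, 1.19. Its levels were 10.88, 8.83 and 9.32 in cax1cax3 and 11.28, 9.54 and 8.75 in the wild type. Array 1 of each genotype stood well above its companions. The small-subunit genes psbT, psbK and psbI shared that order. They measured 9.38, 7.83 and 7.91 in cax1cax3 and 9.62, 7.94 and 8.40 in the wild type for psbT. They measured 12.83, 11.29 and 11.35 in cax1cax3 and 12.71, 10.77 and 11.69 in the wild type for psbK. For psbI the differences within numbers 1, 2 and 3 were -0.11, 0.44 and -0.32.

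Small photosystem II genes, among them psbM and those of the psbE operon, varied least. The genes psbE and psbF encode the cytochrome subunits of photosystem II, and psbL and psbJ encode small subunits beside them. Over all 6 arrays psbE spanned 0.32 log2 units, psbF 0.24, psbL 0.19 and psbJ 0.37. The small-subunit gene psbM measured 13.90, 13.92 and 13.91 in cax1cax3 arrays 1, 2 and 3, against 14.12, 14.03 and 13.96 in wild-type arrays 1, 2 and 3. All mutant arrays lay just below all wild-type arrays, and the difference of -0.12 ± 0.09 (log2 difference ± SE, 95% interval -0.34 to 0.09, limma adjusted p = 0.53) was the lowest p of the group. Its levels were close to the highest value in the table, 14.50. The gene psbN, which encodes an assembly factor from the strand opposite to psbT and psbH, was as steady and spanned 0.27 log2 units. The span was 0.66 for psbH and 1.08 for psbZ. The 15 differences had a median of 0.05, from -0.28 for psbT to 0.41 for psbD.

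**Figure D2:**
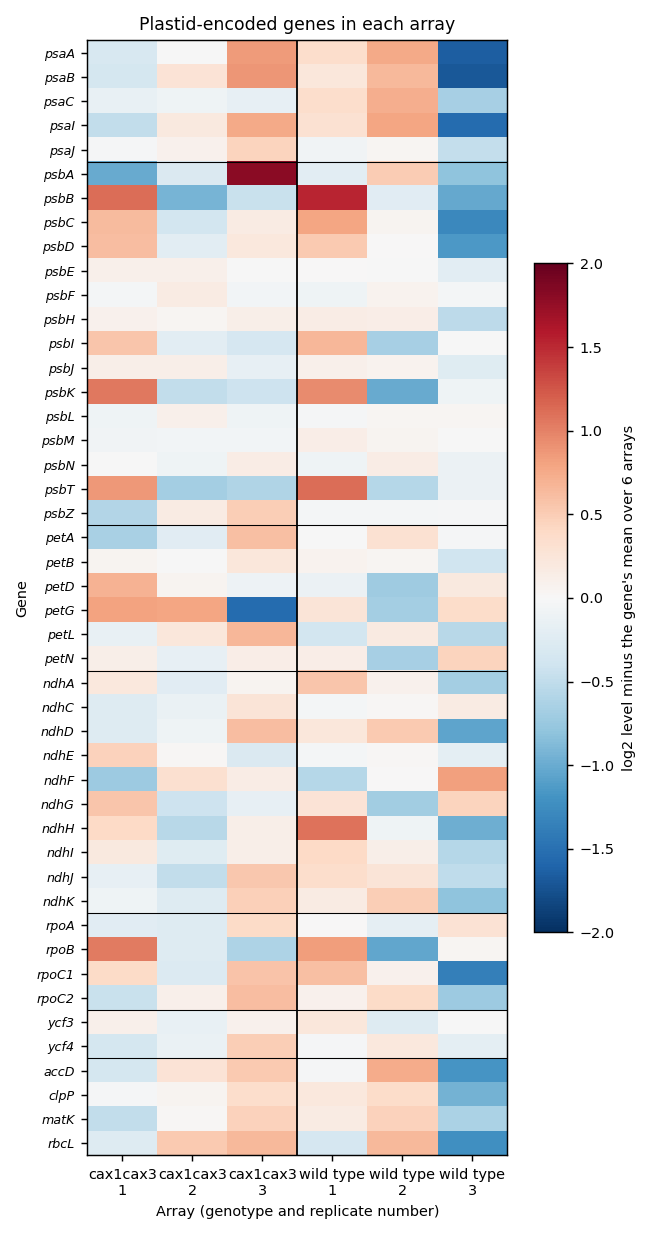
Log2 level of the 46 plastid genes (rows, grouped by name) in the 3 cax1cax3 arrays and the 3 wild-type arrays (columns), each shown as the difference from the gene's mean over the 6 arrays. Wild-type array 3 is low across psaA, psaB, psaI, rbcL, accD and rpoC1. The genes psbB, psbT and psbK are high in both arrays numbered 1, and the rows of psbE, psbF, psbL and psbM are nearly blank.

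Among the 6 pet genes of the cytochrome complex, petL had the largest difference of the group and the lowest adjusted p of all 46 members. This gene encodes a small subunit and measured 8.70, 9.07 and 9.52 in cax1cax3 arrays 1, 2 and 3, against 8.48, 9.03 and 8.30 in wild-type arrays 1, 2 and 3. The mutant array of each number was the higher one, but the genotypes overlapped, and the difference was 0.50 ± 0.26 (log2 difference ± SE, 95% interval -0.13 to 1.12, limma adjusted p = 0.368). Its neighbour petG, for another small subunit, went the other way within the mutant, at 8.11, 8.09 and 5.75 in cax1cax3 and 7.56, 6.63 and 7.66 in the wild type. There cax1cax3 array 3 was more than 2 log2 units below the other mutant arrays. The genes petA, for cytochrome f, petB, for cytochrome b6, and petD, for subunit IV, had differences of -0.18, 0.20 and 0.43, with intervals of -0.91 to 0.54, -0.17 to 0.56 and -0.26 to 1.12. For petN, a small subunit, the difference was 0.06. The median of the 6 was 0.13.

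The 10 ndh genes had a median difference of 0.00, with 5 above and 5 below 0. These genes encode membrane and stromal parts of the NDH complex. The largest difference was that of ndhD, at 11.18, 11.35 and 12.05 in cax1cax3 and 11.66, 11.95 and 10.38 in the wild type, which came to 0.20 ± 0.43 (log2 difference ± SE, 95% interval -0.84 to 1.23, limma adjusted p = 0.87). Wild-type array 3 was the lowest and cax1cax3 array 3 the highest of its values. The lowest adjusted p was that of ndhE, at 9.16, 8.74 and 8.42 in cax1cax3 and 8.68, 8.74 and 8.52 in the wild type, a difference of 0.13 ± 0.19 (log2 difference ± SE, 95% interval -0.33 to 0.59, limma adjusted p = 0.788). The levels of ndhH, at 8.74, 7.80 and 8.46 in cax1cax3 and 9.43, 8.26 and 7.37 in the wild type, differed by -0.02 with an interval of -1.25 to 1.21. In the remaining ndh genes the differences ran from -0.17 for ndhF to 0.09 for ndhK. The gene ndhF had the dimmest probe set of the members, and its array 1 of each genotype lay under 4.54, the 95th percentile of 27 control probe sets for bacterial transcripts. By its mean over the arrays, each of the 46 members lay above that percentile.

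Of the 4 rpo genes, rpoC1 had the largest difference. It encodes the beta' subunit of the plastid polymerase and measured 10.08, 9.43 and 10.28 in cax1cax3 arrays 1, 2 and 3, against 10.32, 9.80 and 8.34 in wild-type arrays 1, 2 and 3. Wild-type array 3 stood apart by more than 1 log2 unit and the other 5 arrays overlapped, with a difference of 0.45 ± 0.50 (log2 difference ± SE, 95% interval -0.75 to 1.64, limma adjusted p = 0.709). The beta'' subunit gene rpoC2 gave 7.18, 7.73 and 8.24 in cax1cax3 and 7.71, 8.01 and 6.91 in the wild type. The beta subunit gene rpoB, which opens the same operon, gave 7.87, 6.59 and 6.22 in cax1cax3 and 7.67, 5.79 and 6.88 in the wild type, highest in both arrays numbered 1 and lowest in wild-type array 2. The alpha subunit gene rpoA lies in an operon of ribosomal protein genes and differed by -0.07, with an interval of -0.57 to 0.42. The median of the 4 differences was 0.14.

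The gene rbcL, for the large subunit of Rubisco, had the largest difference of all members. Its levels were 9.072, 9.855 and 9.981 in cax1cax3 arrays 1, 2 and 3, against 9.003, 9.981 and 8.109 in wild-type arrays 1, 2 and 3. Arrays numbered 1 and 2 were nearly equal between genotypes, and wild-type array 3 was the lowest of the 6. The difference was 0.60 ± 0.48 (log2 difference ± SE, 95% interval -0.53 to 1.74, limma adjusted p = 0.57). The accD product is a subunit of acetyl-CoA carboxylase, the clpP product is the catalytic subunit of the Clp protease, and matK encodes an intron maturase. Their differences were 0.30, 0.25 and 0.00, and each had its lowest wild-type value in array 3 and its highest mutant value in array 3. The photosystem I assembly genes ycf3 and ycf4 differed by 0.03 and 0.00, and ycf3 measured 7.72, 7.48 and 7.71 in cax1cax3 and 7.85, 7.36 and 7.61 in the wild type. Of the inverted-repeat genes left out by the naming rule, ycf2 differed by 0.49 (limma adjusted p = 0.318), ndhB by 0.14 (adjusted p = 0.939) and ycf1 by 0.40 (adjusted p = 0.258).

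The genotype difference of the plastid genes changed sign between replicate numbers. Subtracting the wild-type array from the cax1cax3 array of the same number gave median differences over the 46 members of -0.21 within number 1, -0.14 within number 2 and 0.63 within number 3. Positive differences numbered 14, 16 and 33 of 46. Over all probe sets the medians were 0.01, -0.01 and 0.02. A run of negative, negative and positive differences was seen in 24 members, against 11.6% of all probe sets. It was -0.68, -0.78 and 2.50 for psaA, -0.79, -0.79 and 2.61 for psbA and -0.32, -0.48 and 1.70 for accD. Within number 3 psaB was 5.98-fold, psbA 6.12-fold and rbcL 3.66-fold as high in cax1cax3 as in the wild type, and 18 members differed by over 1 log2 unit either way, against 6.3% of all probe sets. Within numbers 1 and 2 that size was reached by 0 members and by 1, petG, against 724 and 1454 of the 22746 probe sets. Each such value compares 1 array with 1 array and has no replicate.

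The groups differed in how far they followed this. The medians within numbers 1, 2 and 3 were -0.58, -0.60 and 2.29 for the 5 psa genes. They were -0.28, -0.38 and 1.50 for accD, clpP, matK and rbcL. For the ndh genes they were -0.23, -0.34 and 0.71, and for the rpo genes -0.23, -0.18 and 0.71. The psb genes moved less, with -0.06, -0.09 and 0.21, and the pet genes had 0.11, 0.27 and 0.16. Thus the psa genes and rbcL with its companions carried the widest swing, and the psb and pet groups, which mix steady and variable genes, the narrowest. These are medians of 4 to 15 genes that share 6 arrays, and the groups were not tested against each other.

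**Figure D3:**
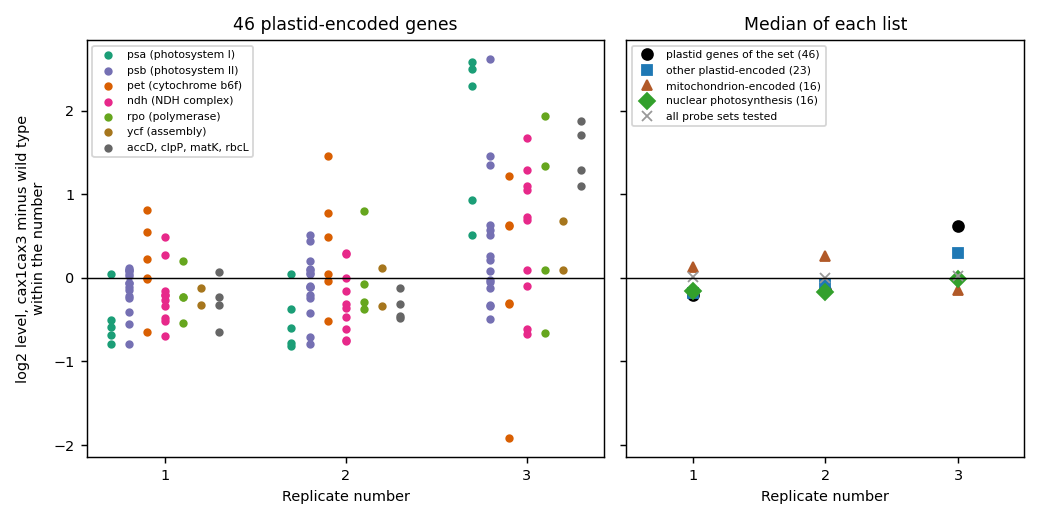
Log2 level in the cax1cax3 array minus that in the wild-type array of the same replicate number (y axis) for numbers 1 to 3 (x axis). Points at left are the 46 plastid genes coloured by name group, and symbols at right are medians of the plastid genes, of 3 other lists and of all probe sets. The plastid medians are -0.21, -0.14 and 0.63.

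A large share of the members followed one of a pair of orders, both picked out after the values were seen. In the first, array 3 was the lowest of the wild type and also the highest of cax1cax3. This held for 20 members, against 9.87% of all probe sets. They were psaA, psaB, psaI, psaJ, psbA, psbH, psbN, petA, petB, petL, ndhD, ndhJ, ndhK, rpoC1, rpoC2, ycf4, rbcL, accD, clpP and matK. In the second, array 1 was the highest of both genotypes. This held for 13 members, against 17.2% of all probe sets: psbB, psbC, psbD, psbE, psbI, psbJ, psbK, psbT, ndhA, ndhH, ndhI, rpoB and ycf3. The other 13 followed neither. Wild-type array 3 was the lowest of its genotype in 31 members, against 8303 of the 22746 probe sets. The cax1cax3 array 3 was the highest of its genotype in 24 members, against 9437 of the 22746. As background, accD and rpoB are read by the nuclear-encoded polymerase, and psbA, psaA and rbcL depend on the plastid-encoded one. Of these, rpoB had the second order and the others the first, as did rpoC1 and rpoC2 of the rpoB operon. The polymerase of each member was not assigned here, and the orders were not tested against polymerase use.

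Same-numbered arrays deviated together over the whole array but not over the plastid genes of number 3. The correlation of deviations from the genotype means was 0.43, 0.29 and 0.47 for numbers 1, 2 and 3 over all 22746 probe sets. Over the 46 members it was 0.67, 0.22 and -0.41, and over the 23 other plastid-encoded genes 0.62, 0.77 and -0.69. Arrays of different numbers also deviated together: cax1cax3 array 3 and wild-type array 2 correlated at 0.71 over the members, and cax1cax3 array 1 and wild-type array 3 at 0.81 over the other plastid-encoded genes, each above the value of the mutant array with its own number. These correlations run across genes, which are not independent replicates. In a limma fit with genotype and number, the moderated F test of the number called 0 members and 0% of all probe sets, and 10 members had an unadjusted p under 0.05, against 16.7% of all probe sets. The lowest adjusted p was 0.0671, for psbT. Without wild-type array 3 the test called 24 members, against 5.8% of all probe sets, and without cax1cax3 array 3 it called 19, against 1.52%. With either of them left out, number 3 rests on 1 array.

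Leaving out both arrays numbered 3, a choice made after the data were seen, turned the median difference of the members to -0.17, with 32 negative and 14 positive differences. No member was called in that fit of 2 arrays against 2, where 8.78% of all probe sets were. At an unadjusted p under 0.05 there were 11 members, against 24.3% of all probe sets, and the lowest adjusted p was 0.0571, for ndhJ. Without wild-type array 3 alone the median was -0.06 and 28 differences were negative, with a lowest adjusted p of 0.0778 for psaC. Of the 46 members, 21 were positive over all arrays and negative without the arrays numbered 3, and 2 were the reverse.

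Genes of 1 transcription unit followed each other in some units and parted in others. In the unit of psaA and psaB the reaction centre genes kept together, with differences of -0.68, -0.78 and 2.50 and -0.58, -0.37 and 2.58 within numbers 1, 2 and 3. Cotranscribed rps14, for a ribosomal protein, ran against them with 0.65, 0.64 and -0.71. The pairs psbD and psbC, with 0.09, -0.21 and 1.35 and -0.15, -0.42 and 1.46, and psbK and psbI, with 0.11, 0.52 and -0.34 and -0.11, 0.44 and -0.32, stayed close. In the psbB operon the 5 genes fell into sets: psbB and psbT were high in both arrays numbered 1, psbH and petB were flat apart from a low wild-type array 3, and petD gave 0.81, 0.77 and -0.30. Each probe set is named for 1 gene of the operon, and why these genes parted was not tested.

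The rpo and ndh units parted too. Within the rpoB operon the differences were 0.20, 0.79 and -0.66 for rpoB, -0.23, -0.37 and 1.94 for rpoC1 and -0.53, -0.29 and 1.34 for rpoC2. In the ndhH operon ndhH, ndhA, ndhI, psaC and ndhD were negative within numbers 1 and 2 and positive within number 3. The intervening ndhG gave 0.28, 0.28 and -0.61, the opposite signs, and ndhE gave 0.49, -0.00 and -0.10. For ndhC, which heads the unit with ndhK and ndhJ, the differences were -0.21, -0.15 and 0.09, against -0.26, -0.75 and 1.29 for ndhK. The 5 genes accD, psaI, ycf4, cemA and petA lie next to each other, and all had the negative, negative and positive run. Their differences within number 3 fell into a high pair, 1.70 for accD and 2.29 for psaI, and a lower trio, 0.68 for ycf4, 0.55 for cemA and 0.61 for petA.

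**Figure D4:**
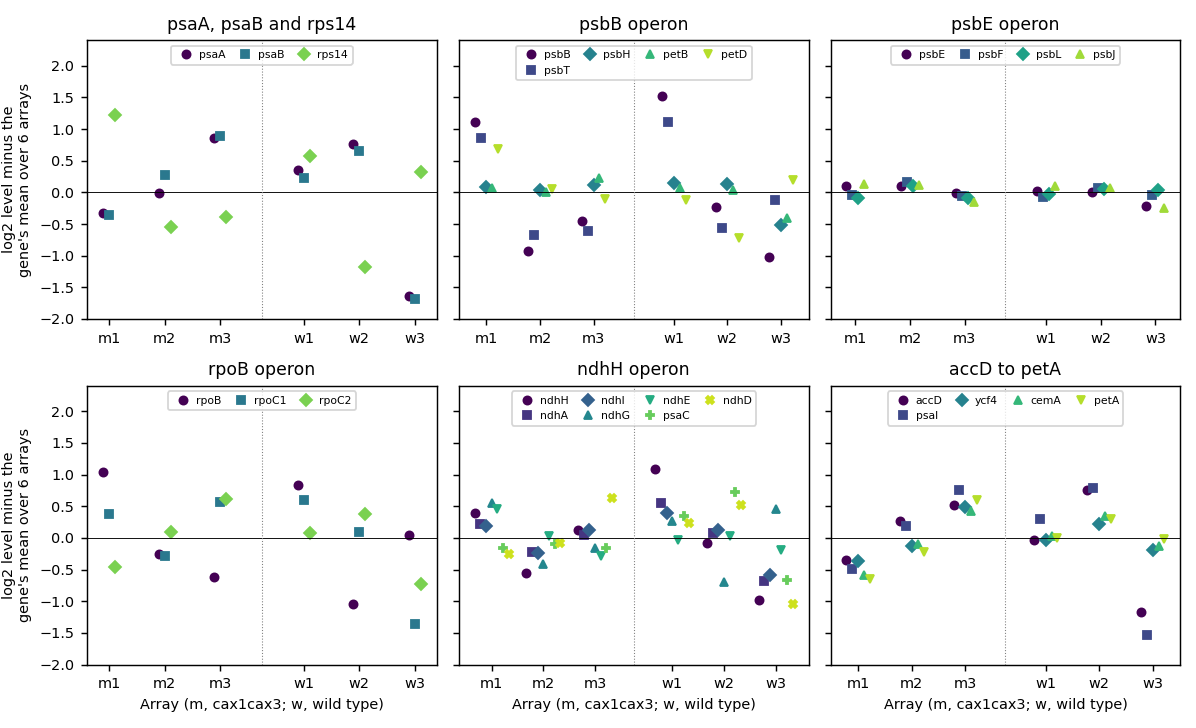
Log2 level of neighbouring plastid genes in 6 transcription units or gene runs, as the difference from each gene's mean over the 6 arrays (y axis), in the cax1cax3 arrays (m1 to m3) and the wild-type arrays (w1 to w3). The symbols of psaA and psaB lie together and those of rps14 apart, and the psbE operon spans at most 0.37 log2 units per gene.

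The other plastid-encoded genes behaved alike in part. Of the 23 measured, 0 were called. The median difference was 0.21, but -0.05 without wild-type array 3 and -0.09 without both arrays numbered 3. The gene rpl22 had the largest, 0.41 ± 0.34 (log2 difference ± SE, 95% interval -0.41 to 1.23, limma adjusted p = 0.595). The within-number medians were -0.44, -0.28 and 1.13 for 6 atp genes of the ATP synthase and -0.12, 0.41 and 0.18 for 15 ribosomal protein genes. The run of negative, negative and positive differences was seen in 6 of the 6 atp genes and in 5 of the 15 ribosomal protein genes. Its share over all probe sets was 11.6%. Of 16 mitochondrion-encoded genes 0 were called and the median difference was 0.12. The largest was that of nad2, 0.48 ± 0.25 (log2 difference ± SE, 95% interval -0.12 to 1.08, limma adjusted p = 0.364). Within numbers 1, 2 and 3 the mitochondrial medians were 0.13, 0.27 and -0.15, the opposite signs to the plastid genes. The negative, negative and positive run was seen in 1 of the 16 genes, against the same 11.6%.

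Nuclear genes of photosynthesis varied less. The annotation named 16 of those looked for. They were 3 of 25 names of photosystem subunits, 3 of 17 of electron transport and ATP synthase and 3 of 34 of the NDH complex and its assembly. The rest were 4 of 24 of the Calvin cycle and 3 antenna genes. The NDH list gave CRR21, CRR22 and CRR28, so many of the 16 are not subunits of the complexes that the plastid genes serve. The median residual SD of the 16 was 0.17, the same as over all probe sets, against 0.52 for the plastid genes. It was 0.41 for the other plastid-encoded genes and 0.39 for the mitochondrion-encoded genes, so a wide spread was not particular to the 46 members. Of the 16 nuclear genes, 2 fell and 0 rose in cax1cax3, against 3.28% and 2.34% of all probe sets. Their median difference was -0.11. LHCB4.3, a minor antenna gene of photosystem II, measured 8.58, 8.36 and 8.65 in cax1cax3 and 9.46, 9.52 and 10.15 in the wild type, and all mutant arrays lay below all wild-type arrays, a difference of -1.18 ± 0.20 (log2 difference ± SE, 95% interval -1.66 to -0.70, limma adjusted p = 0.0237). CRR21, needed for editing of an ndhD transcript, measured 6.96, 7.20 and 7.23 in cax1cax3 and 7.64, 7.71 and 7.70 in the wild type, a difference of -0.55 ± 0.11 (log2 difference ± SE, 95% interval -0.81 to -0.30, limma adjusted p = 0.0343). Both were lower in cax1cax3 within each of the 3 numbers. Leaving out 1 array changed the count of nuclear genes that fell to between 0 and 3. The count was 0 without wild-type array 2, cax1cax3 array 1 or cax1cax3 array 2. It was 1 without wild-type array 1 or 3, and 3 without cax1cax3 array 3. Calls over all 22746 probe sets, in either direction, then ranged from 255 to 1744, against 1279 with all arrays. CLPP4, a nuclear subunit of the Clp protease, differed by -0.16 ± 0.14 (log2 difference ± SE, 95% interval -0.49 to 0.18, limma adjusted p = 0.625). Separate lists held 44 names of plastid transcription, such as sigma factors and polymerase-associated proteins, and 21 of plastid RNA turnover and processing. Of these names, none was named by the annotation and none was analysed here. CRR21, which acts in editing, was listed with the NDH genes instead.

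Several measures of the arrays stood beside these swings. The green-tissue marker named by the annotation was RCA, Rubisco activase, at 13.50, 13.68 and 13.75 in cax1cax3 and 13.68, 13.85 and 13.93 in the wild type. Its highest value was in wild-type array 3, where most of the plastid genes were lowest. Of the 3 root markers 0 were called: EXPA18 differed by 0.14, EXPA7 by 0.06 and PYK10 by -0.05. PYK10 was lowest in both arrays numbered 3, at 12.13, 12.51 and 11.15 in cax1cax3 and 11.95, 12.38 and 11.61 in the wild type. Of 3 anther and pollen genes measured, from 11 names looked for, 1 was called, against 5.62% of all probe sets. It was ATA27, which fell by 3.00 on the log2 scale, and SHT and AMS lay at 4.12 to 5.07 in all arrays. The single seed and silique gene measured, from 13 names looked for, was DELTA-VPE, which fell by 4.12. These are 1 called gene of each kind, and they do not measure the share of flowers and siliques. Wild-type DELTA-VPE was lowest in array 3, at 4.94, 4.69 and 5.58 in cax1cax3 and 9.76, 10.17 and 7.64 in the wild type. The actin probe sets for the 3′ and 5′ ends differed by 0.70, 0.93 and 0.67 log2 units in cax1cax3 arrays 1, 2 and 3. They differed by 0.76, 0.75 and 0.71 in wild-type arrays 1, 2 and 3. This difference was lowest in array 3 of each genotype, but in wild-type array 3 it lay above that of cax1cax3 array 1. The same measure for GAPDH was -0.40 in cax1cax3 array 3 and -0.35 in wild-type array 3, lower than in cax1cax3 arrays 1 and 2, at -0.16 and -0.08, and wild-type arrays 1 and 2, at -0.20 and -0.19. For ubiquitin it was -0.18, -0.24 and -0.28 in cax1cax3 arrays 1, 2 and 3, against -0.27, -0.29 and -0.40 in wild-type arrays 1, 2 and 3. GAPDH was lowest in both arrays numbered 3. Ubiquitin was also lowest in array 3 of each genotype, but in cax1cax3 array 3 it lay between wild-type arrays 1 and 2. The part of organ share or RNA quality in the plastid values was not tested. Array medians ran from 7.03 to 7.08, and correlations between arrays of 1 genotype from 0.976 to 0.993.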

How the data were processed

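Whole-plant RNA of both genotypes was hybridised to Affymetrix arrays, 1 array per sample, from 5 µg of total RNA and 15.0 µg of cRNA per the labels' protocols. The authors deposited log2 expression values per probe set, read as log2 from their range of 3.35 to 14.50. The submitters' processing notes list GCOS 1.1.2 and RMA but give no role, order or settings for either. Nothing was renormalized here. The 64 control probe sets were left out, and 22746 were tested. The platform annotation named 1 gene for 13513 of these, several for 503 and none for 8730, and names were updated through gene numbers in RefSeq (TAIR10.1).

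Genotypes were compared with limma 3.58.1 (R 4.3.3; lmFit, eBayes) over all 6 arrays without covariates, tested on simulated data first, with differences as cax1cax3 minus wild type. The replicate number was tested with a moderated F in a fit with genotype. Arrays of the same number deviated together over all probe sets (correlations 0.43, 0.29 and 0.47). They were therefore paired in the within-number differences and in the replicate block, which rests on the data alone. Over the 46 members these correlations were 0.67, 0.22 and -0.41, so the plastid genes themselves gave no such ground for number 3. The main genotype fit, with its SEs, intervals and p-values, did not pair the arrays. Whether samples were grown separately is not stated, so p-values cover only the spread among these 6 arrays, which may be technical, and their number limits precision. Alternatives were a replicate block, other scalings, a filter on dim probe sets, array weights, a trended prior and leaving out arrays. Members and lists were chosen with earlier results of these data known. Values per array are given for psbA, rbcL and, in each name group, the members with the lowest adjusted p and the largest difference, and for others chosen after their values were seen. Up to 4 called genes, or the largest difference, are named from each comparison list. No sequences are shown.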

Additional observations from a re-analysis of the deposited data

How the results depend on the processing

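No plastid gene was called under any alternative: the replicate block, quantile normalization, median centring, the lowest 33.3% of probe sets left out, array weights, a trended and robust prior, any 1 array left out, or both arrays numbered 3 left out. The members' median difference, 0.06 over all arrays and also with the replicate block, was 0.01 with array weights and 0.08 with quantile normalization. It ranged from -0.06 to 0.25 without 1 array and was -0.17 without both arrays numbered 3. The dim filter removed 1 member, ndhF by its level. The test of the replicate number called 0 members in most settings, 1 with the trended prior, and between 0 and 24 without 1 array, with 24 without wild-type array 3 and 19 without cax1cax3 array 3. Of the 16 nuclear photosynthesis genes 2 fell, 3 with the replicate block, 4 with array weights, 1 with the trended prior and between 0 and 3 without 1 array. Calls over all 22746 probe sets, in either direction, numbered 1279 in the main fit. They numbered 2224 with the block, 2846 with array weights, 1260 with the trended prior and 255 to 1744 without 1 array. Each plastid gene had 1 probe set, so averaging probe sets gave no other value. The cause of these shifts was not tested. With 3 arrays per genotype and the members' residual SD, intervals were up to 3.58 log2 units wide. Together they spanned -1.97 to 2.05, and changes within that span could be missed in the most variable genes.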

Other observations

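The order with array 3 lowest in the wild type and highest in cax1cax3 was seen in 5 of the 16 nuclear photosynthesis genes and in 2 of the 16 mitochondrial genes, against 9.87% of all probe sets. Among them LHCB4.2, a nuclear antenna gene, measured 13.18, 13.23 and 13.45 in cax1cax3 and 12.96, 12.99 and 11.93 in the wild type, with wild-type array 3 more than 1 log2 unit below its companions. The mitochondrial gene ccb382, of cytochrome c biogenesis, measured 6.58, 6.97 and 7.39 in cax1cax3 and 6.75, 7.17 and 5.97 in the wild type. Both were singled out after their values were seen, and neither was called (limma adjusted p = 0.273 and 0.65). The array weights that limma gave in the genotype fit were lowest for cax1cax3 array 3, at 0.342, and 0.777 for wild-type array 3. The control probe set for 25S ribosomal RNA measured 6.22, 7.79 and 7.06 in cax1cax3 arrays 1, 2 and 3, against 6.02, 7.57 and 6.13 in wild-type arrays 1, 2 and 3. That for 5S ribosomal RNA had another order, at 5.30, 5.24 and 5.68 in cax1cax3 and 6.34, 4.65 and 6.26 in the wild type. Array 2 of each genotype was the highest for 25S and the lowest for 5S.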
